A study of Mus musculus with 8 samples.

Results

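Transcripts of 10 genes of the Notch pathway were measured in 4T1 cells, a metastatic line from a mouse mammary carcinoma. The genes are the receptors Notch1, Notch2, Notch3 and Notch4, the ligands Jag1, Jag2 and Dll1, and the targets Hes1, Hey1 and Nrarp, and they are 10 of the 20189 genes tested. They were chosen by name, with the difference between acetate and vehicle in these libraries known, so that difference is given for them as a description. Cells labelled as wild type (WT) were grown in DMEM with serum and given 5 mM acetate, or water as the vehicle control, for 48 h, and poly-A RNA was sequenced from 4 libraries per group. Acetate can be converted to acetyl-CoA, and the study asked how a larger supply of acetyl-CoA alters these cells. A label code is shared by libraries of the same replicate number, and they were treated as 4 pairs. What the code stands for is not given in the labels, so the spread between pairs may be partly technical. All libraries come from 1 cell line.

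Notch receptors are cut at the cell surface after a ligand on a neighbouring cell binds them and is pulled inwards, and the released intracellular part enters the nucleus. There it joins the DNA-binding protein RBPJ and turns a set of corepressor-bound genes on. In mammary epithelium the pathway is known for its part in progenitor and luminal cell fates and, when overactive, in mammary tumours. Hes1 and Hey1 encode repressors that are induced by Notch, and Nrarp encodes an ankyrin repeat protein that is also induced and dampens the signal.

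The start regions of Notch1, Notch3 and Nrarp are shown because these were the members whose difference between acetate and vehicle passed the threshold described below. Each runs from 250 bases before to 50 bases after the RefSeq start on GRCm38.p6, 5′ to 3′ on the strand of the gene. Capitals mark the GC box, GGGCGG or its reverse complement CCGCCC, a motif bound by Sp-family factors. The Notch1 window is chr2:26503773-26504072 (minus strand), the Notch3 window is chr17:32166841-32167140 (minus strand) and the Nrarp window is chr2:25180508-25180807 (plus strand). The Notch1 window lies inside the GENCODE span of the gene given below, which starts further upstream.
Notch1: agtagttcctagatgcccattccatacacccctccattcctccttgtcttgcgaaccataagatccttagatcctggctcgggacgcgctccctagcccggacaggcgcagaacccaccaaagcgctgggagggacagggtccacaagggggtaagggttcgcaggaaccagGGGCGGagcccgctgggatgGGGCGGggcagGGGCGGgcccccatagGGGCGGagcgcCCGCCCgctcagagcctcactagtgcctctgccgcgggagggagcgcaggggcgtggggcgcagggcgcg
Notch3: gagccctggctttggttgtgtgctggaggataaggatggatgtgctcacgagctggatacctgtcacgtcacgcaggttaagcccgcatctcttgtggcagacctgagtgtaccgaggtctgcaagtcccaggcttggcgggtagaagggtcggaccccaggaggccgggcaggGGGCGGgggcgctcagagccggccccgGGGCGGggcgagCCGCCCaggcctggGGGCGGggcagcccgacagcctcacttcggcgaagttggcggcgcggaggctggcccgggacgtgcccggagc
Nrarp: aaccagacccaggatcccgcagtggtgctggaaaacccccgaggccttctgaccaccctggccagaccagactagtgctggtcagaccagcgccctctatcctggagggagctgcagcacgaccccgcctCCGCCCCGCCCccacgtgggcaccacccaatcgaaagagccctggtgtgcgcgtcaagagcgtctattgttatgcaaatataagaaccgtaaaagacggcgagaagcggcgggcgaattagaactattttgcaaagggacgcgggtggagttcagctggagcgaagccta
The GC box occurred 5 times in the Notch1 window, 4 times in the Notch3 window and 2 times in the Nrarp window, and 35.7% of 32851 mouse start regions of the same length held it at least 1 time. These windows held 23, 25 and 21 CpG dinucleotides, against a median of 7 over all start regions. Start regions were matched for 8 of the 10 members, 1 of them (Dll1) with a pair of windows. Hes1 and Hey1 had no matched start region, so their letters were not examined. The core letters of the RBPJ motif, TGGGAA or TTCCCA on either strand, were in 25.6% of all start regions, and they were not among the letters of the 9 member windows. Notch2 had 7 GC boxes and 41 CpG, Jag2 had 5 GC boxes and 63 CpG, and Jag1, Dll1 and Notch4 had no GC box. The Notch4 window held 5 CpG, the fewest of the member windows.

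Values below are normalised reads, which the authors scaled to a total of 20000000 per library. Recovered depth ran from 19.9 to 29.3 M reads (M, mega) per library, so that 1 unit is about 1 read and genes under 10 units rest on few reads. Differences are acetate minus vehicle on the scale of log2(normalised reads + 1), from limma with the replicate number as a block over all 20189 genes. A gene was called when its Benjamini-Hochberg adjusted p was under 0.05. In that fit 8.64% of all genes were called, 5.99% higher and 2.65% lower in acetate, and 3 of the 10 members were called: Notch1 and Notch3 higher and Nrarp lower. Nothing is read from this count, since the members were chosen with the same contrast in view. Without the block limma called 0 of 20189 genes, 353 had an unadjusted p under 0.05, and 0 members were among those 353. The vehicle and acetate ranges overlapped for all 10 members. Over all 20189 genes, 1.65% had ranges that did not overlap, so overlap was the usual case.

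Among the receptors, Notch1 and Notch3 were higher in acetate in 4 of 4 pairs, while Notch2 and Notch4 were not. Notch1 (ENSMUSG00000026923, chromosome 2, 26457903 to 26516663) had 263, 497, 621 and 629.9 normalised reads in vehicle libraries 1 to 4 and 332, 727, 728 and 961 in acetate libraries 1 to 4. Replicate 1 was the lowest in both groups, and the acetate library was above its vehicle partner each time. The Notch1 difference was 0.43 ± 0.06 (log2, SE, n = 4 pairs), and single pairs ran from 0.23 to 0.61.

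Notch3 (ENSMUSG00000038146, chromosome 17, 32120820 to 32166852) had 1.53, 138, 84.4 and 309.8 normalised reads in vehicle and 8.63, 228, 141 and 464 in acetate. Its difference was 0.99 ± 0.19 (log2, SE, n = 4 pairs). On recovered reads with the block, edgeR gave 0.65 and DESeq2 0.71 on the log2 scale. Replicate 1 was almost without Notch3 reads, and replicate 4 held the most in both groups. In pair 1 the difference rested on 11 reads against 2, a ratio of 5.65 with an exact 95% interval of 1.23 to 52.5 that covers counting error only. Pairs 2, 3 and 4 differed by 0.72, 0.73 and 0.58 on the log2 scale, and the fit without replicate 1 gave 0.68. Without replicate 3 or replicate 4 Notch3 was no longer called by limma (adjusted p 0.0783 and 0.0746), with values of 1.08 and 1.13.

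Notch2 (ENSMUSG00000027878, chromosome 3, 98013527 to 98150361) had 2009, 2343, 2404 and 2589 normalised reads in vehicle and 1923, 2552, 2373 and 2588 in acetate. The groups covered nearly the same range, the acetate library was higher in 1 of 4 pairs, and the difference was 0.01 ± 0.03 (log2, SE) with a 95% interval of -0.07 to 0.09. With median-of-ratios scaling the sign of that value turned. Notch4 (ENSMUSG00000015468, chromosome 17, 34564268 to 34588503), best known from endothelium, had 4.58, 17.1, 24.1 and 18.4 normalised reads in vehicle and 4.71, 19.4, 18.9 and 30.9 in acetate. With 6 to 43 reads per library its difference of 0.15 ± 0.24 (log2, SE) had a 95% interval of -0.39 to 0.68.

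**Figure D1:**
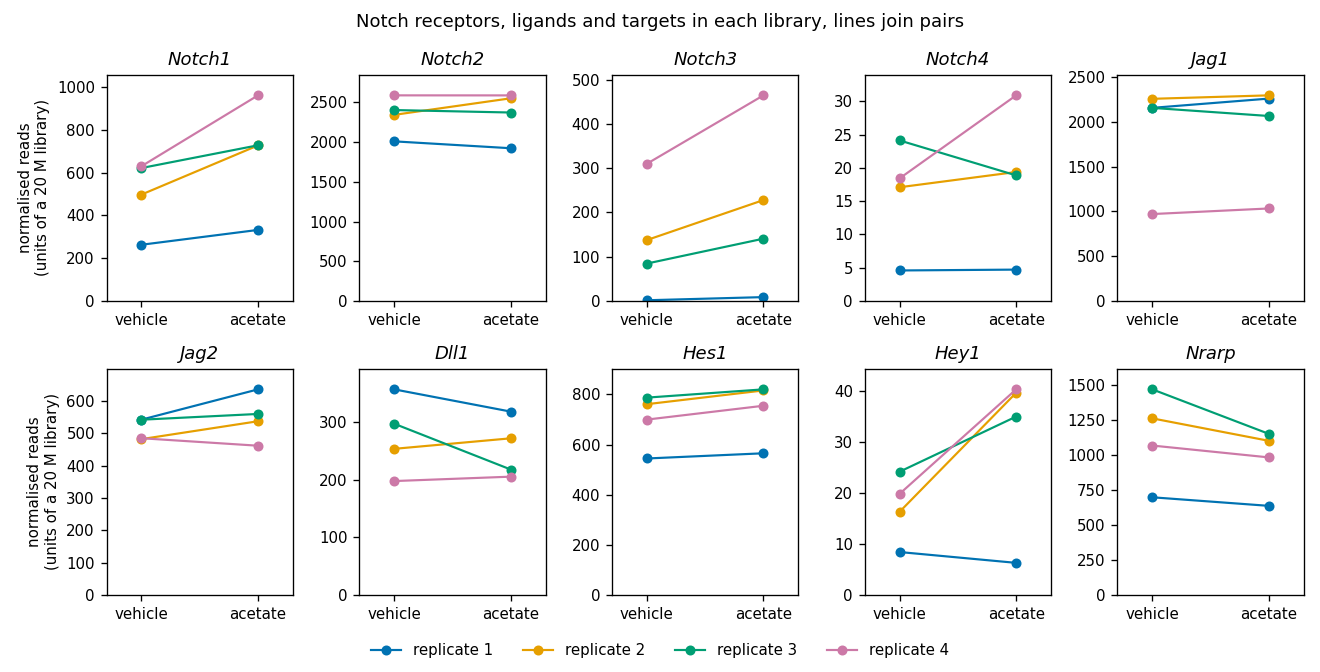
Normalised reads (y axis, linear from 0, a separate scale per gene) of the 10 Notch genes in vehicle and acetate libraries; each point is 1 library and each line joins the libraries of 1 replicate number. The lines of Notch1 and Notch3 go up and those of Nrarp go down in 4 of 4 pairs, and replicate 1 is the lowest line for 7 of the 10 genes.

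Set per kb of exon and divided by the sum over the 4 receptors, Notch2 made up 81.1% ± 6.99 of receptor signal in the vehicle libraries and 75.7% ± 9.29 in the acetate libraries (mean ± SD, n = 4), lower in 4 of 4 pairs. The Notch1 share was 12.8% ± 2.77 in vehicle and 15.9% ± 3.07 in acetate, and the Notch3 share was 5.47% ± 4.92 and 7.73% ± 6.26. Both were higher in 4 of 4 pairs. Notch4 held 0.708% ± 0.328 and 0.722% ± 0.315. These shares restate the same reads and were not tested.

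None of the 3 ligand members was called between acetate and vehicle. Jag1 (ENSMUSG00000027276, chromosome 2, 137081456 to 137116644), a Serrate-type ligand, had 2157, 2258, 2156 and 970.5 normalised reads in vehicle and 2260.2, 2296, 2066 and 1033 in acetate. Replicate 4 was far below the others in both groups, and the difference was 0.03 ± 0.03 (log2, SE) with a 95% interval of -0.04 to 0.10. Jag2 (ENSMUSG00000002799, chromosome 12, 112907819 to 112929776), its close relative, had 542, 482, 542 and 485 normalised reads in vehicle and 636, 537, 559.6 and 461 in acetate. It was higher in 3 of 4 pairs, by 0.09 ± 0.05 (log2, SE) with a 95% interval of -0.03 to 0.21. The Jag2 value was 0.044 without replicate 1 and 0.14 without replicate 4.

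Dll1 (ENSMUSG00000014773, chromosome 17, 15367354 to 15376872), a Delta-type ligand, had 357, 254, 298 and 198 normalised reads in vehicle and 319, 272, 218 and 206 in acetate. It was lower in pairs 1 and 3 and higher in pairs 2 and 4, and the difference was -0.11 ± 0.09 (log2, SE). Dll4, another Delta-type ligand and not a member, was called by limma (adjusted p 0.0155): it rose from 363, 852, 678 and 581 normalised reads in vehicle to 377, 1123, 805 and 868 in acetate, a difference of 0.32 ± 0.07 (log2, SE). Per kb, Dll4 held 26.3% ± 8.43 of the signal of these 4 ligands in vehicle and 30.9% ± 12.0 in acetate, higher in 3 of 4 pairs. The Dll1 share was 10.7% ± 2.21 and 9.05% ± 1.89, lower in acetate in 4 of 4 pairs.

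The target members did not go one way. Hes1 (ENSMUSG00000022528, chromosome 16, 30064384 to 30067796) had 544, 761, 787 and 699.5 normalised reads in vehicle and 565, 816, 820.1 and 755 in acetate. It was higher in 4 of 4 pairs by 0.05 to 0.11 on the log2 scale, with a fitted difference of 0.08 ± 0.04 (SE) that was not called. Hey1 (ENSMUSG00000040289, chromosome 3, 8663359 to 8667256) had 8.40, 16.3, 24.1 and 19.8 normalised reads in vehicle and 6.28, 39.6, 34.9 and 40.2 in acetate. The acetate libraries 2, 3 and 4 were above every vehicle library, and pair 1 went the other way on 8 against 11 reads. Its difference was 0.59 ± 0.27 (log2, SE) and not called, whereas without replicate 1 it was 0.91 and called by limma (adjusted p 0.0288). Without replicate 2, 3 or 4 the Hey1 value was 0.38, 0.62 and 0.46, and not called.

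Nrarp (ENSMUSG00000078202, chromosome 2, 25180758 to 25183339) had 699, 1263, 1471 and 1069 normalised reads in vehicle and 637, 1103, 1152 and 984 in acetate. Each acetate library was below its vehicle partner, and the difference was -0.20 ± 0.04 (log2, SE, n = 4 pairs). The largest step, -0.35, was in pair 3. Without replicate 2, 3 or 4 Nrarp was no longer called by limma (adjusted p 0.0883, 0.119 and 0.0655), with values of -0.20, -0.15 and -0.23. The sources do not say whether strand was used in counting. Notch1 and Nrarp overlap genes on the opposite strand whose own means were 3.14 and 0.775 normalised reads. Notch1, Notch3 and Dll1 overlap opposite-strand genes that were not analysed here.

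**Figure D2:**
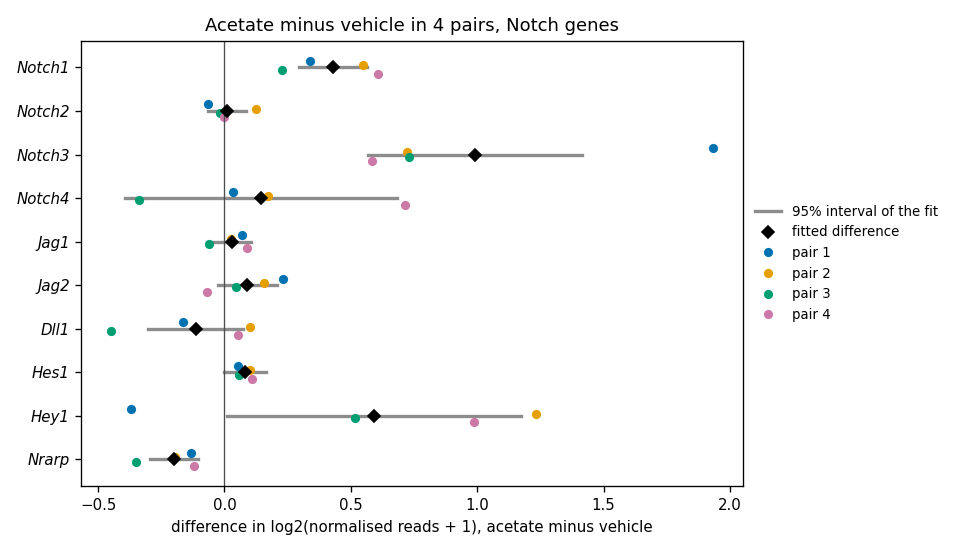
Difference between acetate and vehicle in log2(normalised reads + 1) (x axis) for the 10 Notch genes; coloured points are the 4 pairs, diamonds the fitted difference and grey lines its 95% interval. The points of Notch1 and Notch3 lie right of 0 and those of Nrarp left of it, while the interval of Notch4 runs from -0.39 to 0.68.

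Over the 10 members, 3 were higher in 4 of 4 pairs (Notch1, Notch3 and Hes1) and 1 was lower in 4 of 4 pairs (Nrarp). This restates the contrast known when the members were chosen, and the same was not counted over all genes. The fitted difference was above 0 for 8 of 10, where 55.0% of all genes were above 0, with a median of 0.09 on the log2 scale against 0.02 over all genes tested. The all-gene median was 0.00025 with median-of-ratios scaling and -0.01 with quantile scaling.

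The remaining genes of the pathway were read from lists of textbook roles. Of 87 genes written, 77 were in the table, and 15 of these were called in limma with the block, 11 higher and 4 lower in acetate. That is 19.5% of the listed genes, where 8.64% of all genes were called. Of the 77 genes, 71 had a mean of at least 10 normalised reads, and among all genes with such a mean 12.9% were called. Nothing is read from this count, since the lists were chosen with earlier results of these data known. The median difference was 0.03 on the log2 scale over the 77 genes. The count fell to 0 without the block, to 8 without replicate 2, to 2 without replicate 3 and to 3 without replicate 4. Hdac1 was the only 1 of the 15 that stayed called in every blocked fit. DESeq2 with the block did not call Neurl1a or Dtx3 (adjusted p 0.0912 and 0.0915). Neurl1a, Dtx3, Dll4, Adam17, Ctbp1 and Ncor1 were each lost from the limma calls when replicate 2, 3 or 4 was left out. For Neurl1a, Dtx3 and Dll4 the limma adjusted p was then 0.0692 to 0.139, 0.0674 to 0.0816 and 0.107 to 0.127. For Adam17, Ctbp1 and Ncor1 it was 0.0524 to 0.109, 0.0601 to 0.0843 and 0.0539 to 0.0992. Mib1 was lost without replicate 1, 3 or 4, and Ccnd1 without replicate 2 or 3. Ccn3, Aph1b, Neurl3 and Tle3 were lost without replicate 3 or 4, Numbl without replicate 3 and Tle2 without replicate 4. Among the 15, Hdac1 and Mib1 had vehicle and acetate values that did not overlap, as did 7.80% of all called genes.

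Among other ligands, 2 of 5 measured genes were called, both higher: Dll4 and Ccn3. Ccn3, a matricellular protein reported to bind Notch1, went from 46.6, 253, 212 and 321 normalised reads to 73.0, 299.7, 303 and 428, a difference of 0.45 ± 0.08 (log2, SE; limma adjusted p 0.00483). Replicate 1 was the lowest in both groups, as for Notch1 and Notch3. None of the 8 genes for receptor glycosylation was called. Lfng, the fringe enzyme that lengthens O-fucose on the receptors, was higher in 4 of 4 pairs with a difference of 0.14 ± 0.07 (log2, SE; limma adjusted p 0.2495).

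Of the 10 genes for receptor proteolysis, 2 were called, both higher. Adam17, a sheddase, went from 2545, 3520.0, 3300.3 and 3545 to 2695, 3810.0, 3827 and 4071 normalised reads, by 0.15 ± 0.03 (log2, SE; limma adjusted p 0.0109). Aph1b, a γ-secretase subunit, went from 174 ± 48.3 to 228 ± 72.7 (SD, n = 4), by 0.37 ± 0.07 (log2, SE; limma adjusted p 0.00958). Aph1b has a close paralog, Aph1c, and reads may be split between them. Adam10, the main sheddase of ligand-bound Notch, differed by 0.01 ± 0.03 (limma adjusted p 0.921) with a 95% interval of -0.06 to 0.08.

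Ubiquitin ligases that act on the ligands held calls in both directions, 2 higher and 1 lower of 5. Mib1, which drives ligand uptake, fell from 3733, 3407, 3477 and 3416 to 3168, 3284, 3127 and 3138 normalised reads, a difference of -0.14 ± 0.03 (log2, SE; limma adjusted p 0.0201). Every acetate library was below every vehicle library. Neurl1a rose by 0.39 ± 0.09 (log2, SE) from a mean of 131 normalised reads, and Neurl3 by 0.19 ± 0.04 from 1849.8 (limma adjusted p 0.0215 and 0.0224). Of 11 regulators of the receptors, 2 were called. Numbl, a relative of the Notch inhibitor Numb, rose from 48.1, 112, 123 and 152 to 75.3, 159, 186 and 199 normalised reads, by 0.53 ± 0.09 (log2, SE; limma adjusted p 0.00378). Dtx3, of the Deltex family, rose by 0.15 ± 0.03 (log2, SE; limma adjusted p 0.0120).

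In the nucleus, none of the 9 activators was called, and 5 of the 16 corepressor genes were, 3 higher and 2 lower. The activators had a median difference of -0.06 on the log2 scale, with 2 of the 9 above 0. Kat2a among them was called with a pseudocount of 5, the filter on means under 10, median-of-ratios scaling and edgeR. Ep300 was called in edgeR. Rbpj, the DNA-binding hub, had 2602 to 3298 normalised reads in vehicle and 2602 to 3438 in acetate, a difference of -0.01 ± 0.03 (log2, SE; limma adjusted p 0.886; 95% interval -0.08 to 0.06). Hdac1, a histone deacetylase of many corepressor complexes, rose from 2415, 2492, 2278 and 2473 to 2803, 2879, 2821 and 2859.8 normalised reads. Its groups did not overlap, and the difference was 0.24 ± 0.03 (log2, SE; limma adjusted p 9.52e-04).

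The Groucho-family corepressors Tle2 and Tle3 also rose. Tle2 went from 18.3, 257, 251 and 386 to 30.6, 424, 303 and 625 normalised reads, by 0.60 ± 0.09 (log2, SE; limma adjusted p 0.00216), and Tle3 from 1629 ± 256 to 1924 ± 377 (SD, n = 4), by 0.23 ± 0.04 (limma adjusted p 0.00451). Ctbp1 and Ncor1, 2 further corepressors, fell by 0.12 each on the log2 scale (SE 0.03 for each; limma adjusted p 0.0127 and 0.0150). None of the 3 other Hes and Hey genes in the table was called. Of 10 genes often reported as Notch targets, Ccnd1 (cyclin D1) was called. Its difference was -0.16 ± 0.03 (log2, SE, limma adjusted p 0.00426) from a mean of 39736 normalised reads. Without replicate 2 or 3 Ccnd1 was not called (limma adjusted p 0.0597 and 0.0719). Nfkb2 of the same list was called with the filter on means under 10, median-of-ratios scaling, edgeR, DESeq2 and without replicate 1. With the filter on means, Id2 and Hes6 were also called. Dll4, Adam17, Ncor1 and Ccnd1 overlap genes on the opposite strand with means of 74.5 to 414 normalised reads, and Tle2 overlaps one that was not analysed here.

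**Figure D3:**
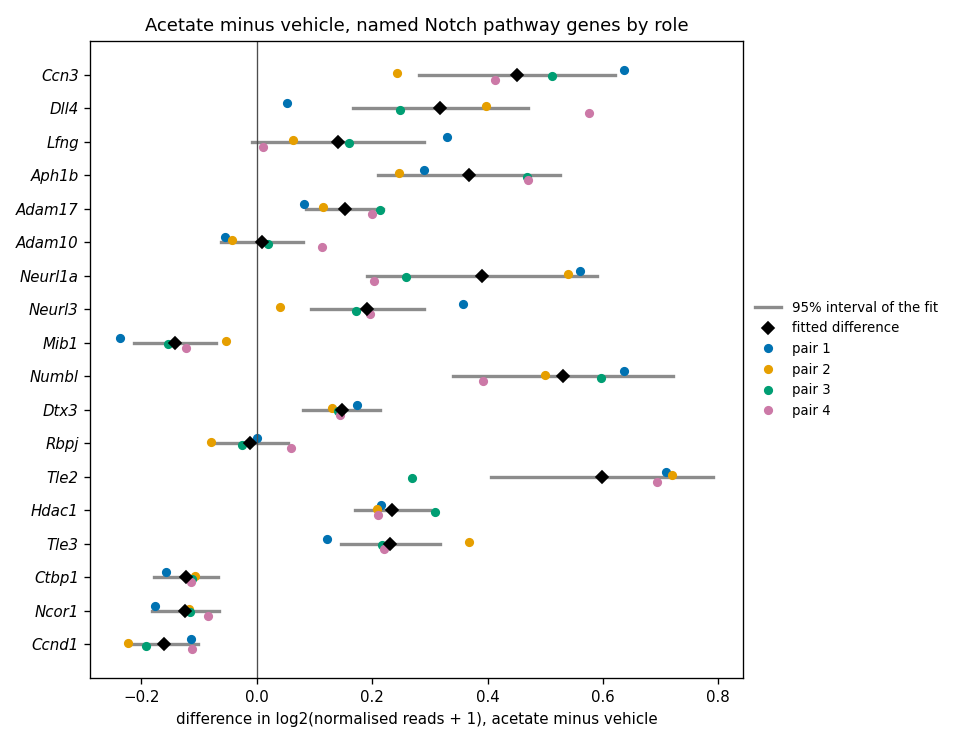
Difference between acetate and vehicle in log2(normalised reads + 1) (x axis) for 18 named pathway genes that are not members, ordered by role from ligands at the top to targets at the bottom; coloured points are the 4 pairs, diamonds the fitted difference and grey lines its 95% interval. Lfng, Adam10 and Rbpj have intervals that cross 0, and the other 15 genes were called.

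The larger source of spread in the Notch genes was the replicate number, a contrast that was not used to choose them. All 10 members differed between the 4 replicate numbers by the limma F-test with treatment in the model, where 58.2% of all genes did (79.9% of genes with a mean of at least 10 normalised reads). Without replicate 1 the same test called 4 of 10 (Notch1, Notch3, Jag1 and Nrarp) and 30.7% of all genes. The replicate number held between 72.3% (Jag2) and 99.6% (Jag1) of the variance of the members, and a median of 81.9% over all genes. For each of the 10 members the range between replicate means was wider than the largest difference between acetate and vehicle in any pair. How often this held over all genes was not counted.

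Replicate 1 was the lowest for 7 members, namely the 4 receptors, Hes1, Hey1 and Nrarp, and replicate 4 was the lowest for the 3 ligands. The lowest replicate was not counted over all genes. Notch3 spanned 6.27 on the log2 scale between replicate means (limma F-test adjusted p 1.16e-08), Notch4 2.14 (5.63e-04), Hey1 1.86 (0.00233) and Notch1 1.39 (2.18e-07). Jag1 spanned 1.18, with replicate 4 below the others (limma F-test adjusted p 3.31e-09). Nrarp spanned 0.96, Dll1 0.74, Hes1 0.53, Notch2 0.40 and Jag2 0.31, with limma F-test adjusted p of 2.74e-07, 0.00168, 1.10e-05, 9.51e-05 and 0.0172. Among pathway genes that are not members, 61 of 77 passed the same test. Hdac1 and Mib1 did not, with ranges of 0.08 and 0.07 on the log2 scale (limma F-test adjusted p 0.355 and 0.530).

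**Figure D4:**
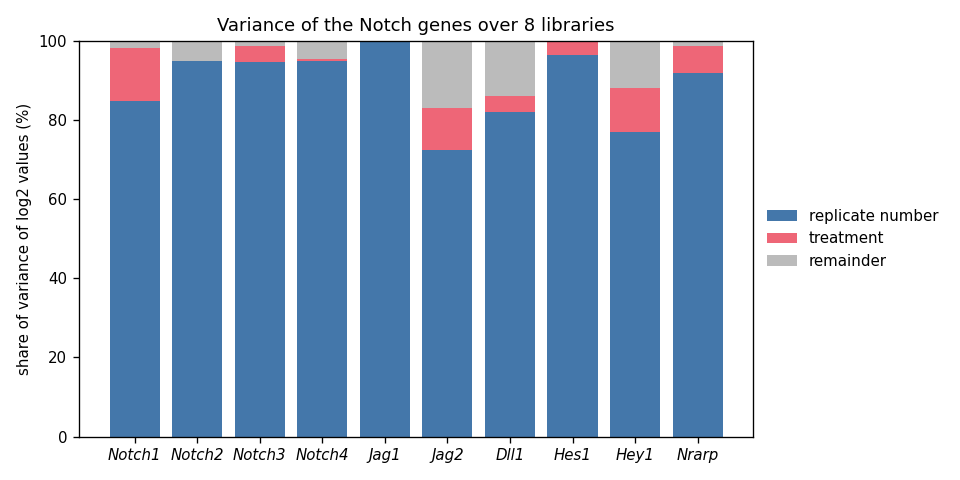
Share of the variance of log2(normalised reads + 1) over 8 libraries (y axis, percent) that goes with the replicate number, with treatment and with neither, for the 10 Notch genes. The replicate number takes from 72.3% in Jag2 to 99.6% in Jag1, and treatment takes the most in Notch1, at 13.6%.

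Levels between genes were compared per kb of exon. By the median of 8 libraries the order was Nrarp (420.5 normalised reads per kb), Hes1 (372), Jag1 (370.1), Notch2 (221), Jag2 (77.5), Dll1 (62.4), Notch1 (44.0), Notch3 (17.2), Hey1 (6.73) and Notch4 (2.31). Only Notch2 and Jag2 were neighbours whose ranges did not overlap, with 178 to 240.1 and 66.2 to 91.3 normalised reads per kb. For all other neighbours the ranges overlapped. Within single libraries, Notch2 was above Jag2, Notch1 above Notch3 and Hey1 above Notch4 in 8 of 8, while Hes1 was above Jag1 in 5 of 8. Notch3 ran from 0.189 to 57.4 normalised reads per kb, below Hey1 and Notch4 in vehicle replicate 1 and above Notch1 in no library.

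**Figure D5:**
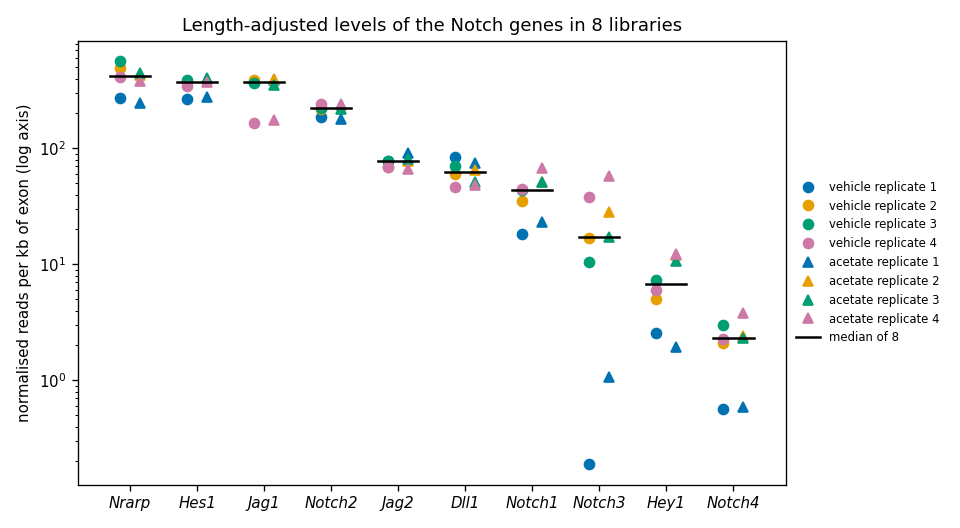
Normalised reads per kb of exon (y axis, log scale) of the 10 Notch genes in order of their median (black bar); circles are vehicle and triangles acetate libraries, coloured by replicate number. Notch3 covers the widest range, from 0.189 to 57.4, and the pair of replicate 4 lies apart for Jag1.

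Across the 8 libraries, the genes whose log2 values followed Notch3 most closely were Steap4, Cbr2, Fam214a, Ctdsp2 and Pde5a, with Pearson r of 0.999, 0.999, 0.998, 0.998 and 0.998 among 10839 genes with a mean of at least 64 normalised reads. Over the 6 libraries of replicates 2 to 4, r was 0.990, 0.986, 0.979, 0.984 and 0.993. The most opposite were Abl2 and Tarbp2, with r of -0.9997 and -0.995 over 8 libraries and -0.997 and -0.959 over 6. Both libraries of a pair share a replicate number, so these are descriptions of few separate points. Between members, Notch3 and Nrarp had r of 0.72 over 8 libraries and -0.95 over the 6 of replicates 2 to 4, so the sign rested on replicate 1. Notch3 and Notch2 had 0.94 and 0.85.

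The cells carried mammary epithelial markers: 9 of 11 were in the table, and their sum ran from 60556 to 82258 normalised reads in vehicle and from 66570.0 to 84670.0 in acetate. Of these 9, 4 were called higher in acetate and none lower. Endothelial markers summed to 2.44 to 6.14 in vehicle and 3.77 to 7.06 in acetate, over 3 of 5 genes with none called, and the pan-leukocyte gene Ptprc was at most 3.02 normalised reads in any library. Of 5 leukocyte markers measured, only Csf1r was called, with a difference of 1.08 (log2), and the list summed to 97.0 to 205 and 100.5 to 215. Most of that sum was Cd68, at 66.7 to 191 normalised reads, and Csf1r had 9.55 to 35.5. Of 4 fibroblast markers 2 were called, Pdgfra (0.52) and Pdgfrb (1.40), both higher in acetate. That list summed to 233 to 1523 in vehicle and 396 to 1998 in acetate, nearly all of it Pdgfra, while Col1a2 was at most 3.82 and listed at 0 in some libraries. The part of these differences in those of Notch1 and Notch3 was not tested. In bulk RNA, fewer cells that carry a transcript and less of it per cell cannot be told apart.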

How the data were processed

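Poly-A RNA of 8 libraries was sequenced with a stranded kit, and the authors aligned reads to GRCm38 with STAR; HTSeq is also named in the submitters' processing notes, and versions are not given in the sources used here. The authors deposited a signal normalised to the reads of each library, with a sum of 20000000 per library up to rounding. Each gene was above 0 in at least 4 libraries. All values were whole multiples of 1 read (tolerance 0.02 reads), which gave reads back, with vehicle replicate 3 at about 1 unit per read. Identifiers were matched to GENCODE M21, with a symbol for 20004 of 20189 genes.

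Acetate and vehicle were compared with limma 3.58.1 (R 4.3.3, trend, two-sided) on log2(value + 1) with the replicate number as a block. This scale understates changes of low genes. Same-numbered libraries share a label code and deviated together from the group means (r of 0.81, 0.27, 0.20 and 0.69 over 18188 genes). The highest r with another number was -0.26, 0.24, 0.18 and 0.24, so replicates 2 and 3 barely stood out. The study's own gene ranking was unpaired, and the block was placed in the fit with earlier results known, including that the fit without it called 0 genes. The members and the gene lists were likewise chosen with earlier results of these data known. Replicate numbers were compared with a moderated F-test in the same fit. Named by rule were the members, called pathway genes, Rbpj, Adam10, Lfng and Dll4, and the 5 highest and 2 lowest correlations with Notch3. Hes5 and Heyl of the same rule were not analysed here. Some pathway genes called only with other settings are named as well. A gene that the rule also names is not reported here, and counts include it. Alternatives were the fit without the block, pseudocounts of 0.1 and 5, a filter on means under 10, median-of-ratios and quantile scaling, edgeR 4.0.16 and DESeq2 1.42.0 on recovered reads, and each pair left out. The fits were tested on simulated data.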

Additional observations from a re-analysis of the deposited data

Results flagged for a closer look

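In groups of 4 libraries, 4 of 58 groups examined for the named genes had 1 library far from the others by Dixon's criterion (the gap to the nearest library over the range of the group), where chance gives about 1 in 20. Jag1 in vehicle replicate 4 had 970.5 normalised reads against 2156 to 2258 in the other vehicle libraries (gap over range 0.921). Hey1 in acetate replicate 1 had 6.28 against 34.9 to 40.2 (0.843). Ctbp1 was highest in replicate 1 of both groups, with 5798 against 4516 to 4672 in vehicle (0.879) and 5202 against 4175 to 4323 in acetate (0.856).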

How the results depend on the processing

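The calls between acetate and vehicle rest on the block: without the replicate block limma called 0 genes, 0 members and 0 other pathway genes, and at an unadjusted p under 0.05 it had 353, 0 and 1. With the block, DESeq2 called 1126 genes and limma 1744. Of the called genes, 69.3% were higher in acetate in limma, 54.9% with median-of-ratios scaling, 54.8% in edgeR and 58.0% in DESeq2. Leaving out 1 pair gave 409 to 1662 genes, 1 to 4 members and 2 to 15 other pathway genes. For differences between replicate numbers it gave 6199 to 11610.0 genes and 4 to 10 members, the fewest without replicate 1. Notch1 stayed called in every blocked fit. Notch3 was not called without replicate 3 or 4, nor Nrarp without replicate 2, 3 or 4. Hey1 was called in edgeR (0.80) and without replicate 1 (0.91). It was not called in DESeq2 (0.70), with quantile scaling (0.45) or without replicate 2 (0.38) or 4 (0.46). Signs turned for values near 0: Notch2 was -0.0091 with median-of-ratios scaling, -0.0069 in edgeR, -0.0086 in DESeq2 and -0.028 to 0.035 with 1 pair left out. Adam10 was -0.010, -0.0074, -0.0093 and -0.026 to 0.030 in the same order. With 1 pair left out Notch4 was -0.044 to 0.31 and Rbpj -0.035 to 0.012. The cause of these changes was not tested. Values of the members and of the pathway genes named by rule were compared over settings. Among them, 278 kept direction and side of the threshold, 58 lost their call, 2 gained one and 10 turned sign. Relative to the library total, median-of-ratios scaling shifted the median gene by -0.02 and quantile scaling by -0.04 on the log2 scale. Depth limits Notch3 in replicate 1 and Notch4 and Hey1 in every library, where counts were 56 reads or fewer.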
